A study of Mus musculus with 100 samples.

Results

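Glo1, Dnah8 and Alad were among the genes with higher read counts in knee joints of MRL/MpJ mice than in those of C57BL/6 and STR/ort mice in every state sampled. The 3 genes were selected on these read counts, in the contrasts of MRL/MpJ with the other strains. They are described here with 3 genes that flank them on the chromosome: Btbd9, which lies beside Glo1, and Hdhd3 and Pole3, which lie on either side of Alad. These are 6 of the 17310 genes in the count table, and all 6 passed the filter on low counts. Because Glo1, Dnah8 and Alad were picked for their high level in MRL/MpJ, their values in that strain are given as a description, with no test. Tests are given for the flanking genes, for STR/ort against C57BL/6, and for injury.

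The study profiled whole knee joints by RNA-seq of poly(A)+ RNA in 100 libraries, from joints cut at the edges of femur and tibia with traces of soft tissue left on. The mice were 10 weeks old at injury, so joints taken later came from older mice, and they belonged to 3 inbred strains: MRL/MpJ (33 libraries), which the labels call not susceptible to post-traumatic osteoarthritis, and C57BL/6 (34) and STR/ort (33), which they call susceptible. The right knee was injured with a compressive load of 10–12 N, and the uninjured contralateral knee served as control. Joints were taken at 0-day, before injury (4 per strain), and as injured and uninjured joints 1-day, 1-week and 2-weeks after it (4 or 5 per group), which gives 7 states per strain. Neither the labels nor the methods give the sex of the mice or say that libraries were pooled. Each strain differs from the others at many loci, so no strain difference below can be tied to a gene by this design.

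Total counts per library ran from 6182016 to 20986027, with a median of 10582591. The 2-weeks libraries formed experimental batch 2 and all others batch 1, so time and batch cannot be told apart at 2-weeks, and strains were compared only within a state. Cartilage, bone, fast muscle, marrow neutrophil, erythroid and T cell markers were all detected, as a whole joint with its marrow and soft tissue would hold. Over the 7 states, 44 of 56 tests called cartilage markers lower in MRL/MpJ than STR/ort, and 32 of 56 called fast muscle markers higher, where 20.6% of all genes were called (adjusted p under 0.05 and over 1.5-fold) in either direction and 9.28% higher. Against C57BL/6, where 12.3% of all genes were called, 32 of 56 tests called cartilage markers lower and 14 of 56 called fast muscle markers higher. T cell markers were called higher in MRL/MpJ in 28 of 42 tests against STR/ort and 11 of 42 against C57BL/6. Their summed level at 0-day was 62.4 to 71.3 CPM (counts scaled to a library of 1e+06 counts), beside 33.7 to 40.2 CPM in C57BL/6 and 19.9 to 27.4 CPM in STR/ort, and MRL/MpJ did not overlap with STR/ort in any of the 7 states or with C57BL/6 in 6 of them. Bone markers summed at 0-day to 6674 to 8921 CPM in MRL/MpJ, 11200 to 16280 CPM in C57BL/6 and 7723 to 10230 CPM in STR/ort. In 1-week uninjured joints MRL/MpJ (6003 to 9710 CPM) and C57BL/6 (5236 to 8864 CPM) overlapped in these markers. The part of these differences in tissue make-up in the gene levels below was not tested, except where erythroid markers are set beside Alad.

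Glo1 encodes glyoxalase 1, which works with glutathione to clear methylglyoxal, a reactive by-product of glycolysis that modifies proteins. Dnah8 encodes an axonemal dynein heavy chain, a motor subunit of cilia and sperm flagella. Btbd9 encodes a BTB domain protein. Alad encodes delta-aminolevulinate dehydratase, the enzyme of the heme pathway that joins 2 molecules of aminolevulinate into porphobilinogen, and which is made in large amounts in erythroid precursors. Hdhd3 encodes a protein of the haloacid dehalogenase family, and Pole3 a small histone-fold subunit of DNA polymerase epsilon and of the CHRAC chromatin remodelling complex. As background, stretches of DNA that hold Glo1, and others that hold Alad, are known to be duplicated in some inbred mouse strains. No DNA was measured here and gene copies were not counted.

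By the RefSeq models on GRCm38.p6, the build also called mm10, the first 3 genes lie in a row on chromosome 17. Btbd9 spans 30215524 to 30582621 on the minus strand, Glo1 spans 30592861 to 30612659 on the minus strand, and Dnah8 spans 30626935 to 30875762 on the plus strand. The gaps between them are 10.2 kb and 14.3 kb. A long non-coding RNA gene, 1700097N02Rik, fills part of the second gap at 30622441 to 30626905 on the minus strand. The Alad group lies on chromosome 4, all on the minus strand: Hdhd3 at 62499054 to 62502200, Alad at 62505984 to 62520063 and Pole3 at 62523798 to 62525014, with gaps of 3.8 kb and 3.7 kb.

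Sequence just upstream of the starts is shown for Glo1, Dnah8 and Alad, the genes chosen for their MRL/MpJ level, so that the arrangement of the start sites can be seen. Known motifs were searched on both strands of the 250 bases upstream. The box bound by factor NF-Y was spelt CCAAT. The box bound by Sp1 family factors was spelt GGGCGG. The E box searched was spelt CACGTG. The site of erythroid GATA factors was spelt AGATAA. The core of the antioxidant response element was spelt TGACNNNGC. Capitals mark the matches. RefSeq upstream windows were on hand for 5 of the 6 genes, all but Btbd9. For Alad 2 windows were listed, and the matches given are those of the window shown.

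Glo1, last 30 bases upstream of the start, chr17:30612660-30612689, minus strand: ggttggctgggagccgcgtCCGCCCGCCCc

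Gap between the starts of 1700097N02Rik and Dnah8, chr17:30626906-30626934, plus strand: aacggctgagccaCCGCCCaacttccttt

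Alad, chr4:62520064-62520313, minus strand: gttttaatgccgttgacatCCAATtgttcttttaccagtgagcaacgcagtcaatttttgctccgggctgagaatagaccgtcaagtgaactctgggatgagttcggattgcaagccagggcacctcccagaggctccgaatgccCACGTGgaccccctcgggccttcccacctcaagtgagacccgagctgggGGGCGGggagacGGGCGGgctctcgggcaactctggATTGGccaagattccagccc

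Dnah8 and 1700097N02Rik start 29 bases apart and are read in opposite directions. That gap holds 1 Sp1 box, read as CCGCCC on the strand shown, and the end of the Glo1 window holds 2 that overlap each other. The Alad window holds NF-Y boxes at -231 and -20 from the start, Sp1 boxes at -56 and -44 and an E box at -105, where -1 is the base next to the start. The Alad window shown holds no match to the GATA site as spelt or to the antioxidant response element core. This says nothing of the other Alad window. Outside the stretch shown, the Glo1 window holds an NF-Y box at -65 and an Sp1 box at -223. The Hdhd3 window holds an Sp1 box at -63, and that of Pole3 holds no match. Of 32851 windows of 250 bases upstream of mouse genes, 33.8% held the NF-Y box, 32.7% the Sp1 box, 6.0% the E box, 10.0% the GATA site and 10.2% the antioxidant response element core. These matches describe the letters of the C57BL/6-derived reference and not the sequence of the other strains.

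Glo1 was higher in MRL/MpJ joints than in those of both other strains in all 7 states, by 1.99- to 2.43-fold against C57BL/6 and by 2.18- to 2.69-fold against STR/ort. Levels are in CPM, scaled with TMM factors. At 0-day the 4 MRL/MpJ libraries stood at 217, 192, 219.9 and 199 CPM. The 4 C57BL/6 libraries stood at 89.9, 84.6, 84.0 and 81.4 CPM, and the 4 STR/ort libraries at 95.6, 88.4, 93.1 and 102 CPM. The lowest MRL/MpJ library was thus well above the highest of the other strains. Over all states the 33 MRL/MpJ libraries ran from 157 to 249.9 CPM (median 192), the 34 C57BL/6 libraries from 77.4 to 115 CPM (median 90.6) and the 33 STR/ort libraries from 59.9 to 102 CPM (median 79.3). MRL/MpJ did not overlap with either strain in any state. Group means in MRL/MpJ lay between 178 ± 17.4 CPM (SD, n = 5) in 1-day injured joints and 207 ± 13.5 CPM (SD, n = 4) at 0-day. On the log2 scale of the edgeR fit the difference was 0.99 to 1.24 (SE 0.07 to 0.10) against C57BL/6 and 1.12 to 1.44 (SE 0.07 to 0.11) against STR/ort.

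**Figure D1:**
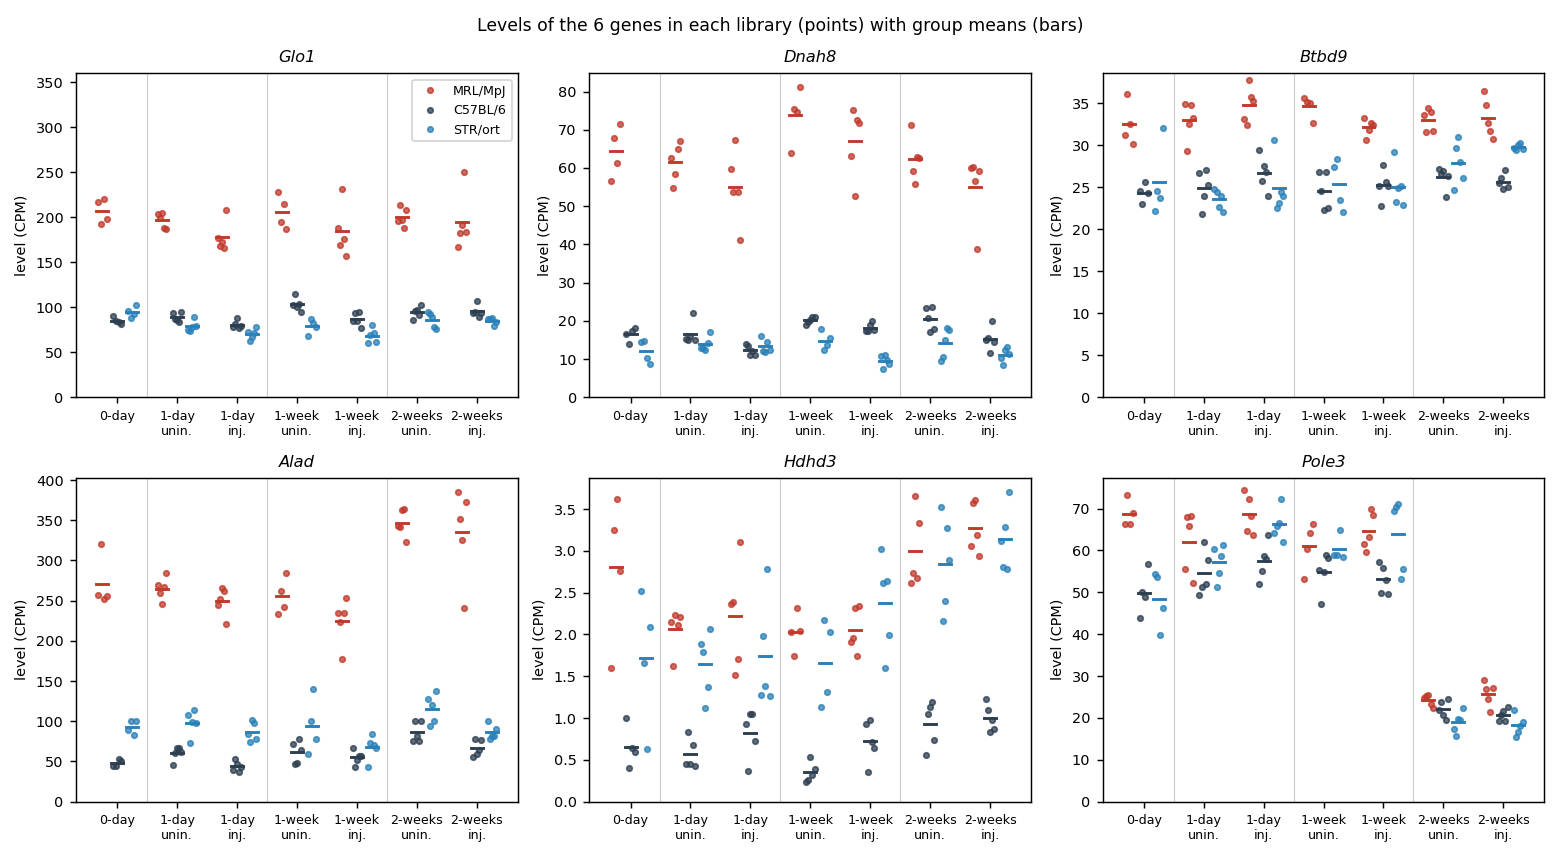
Level of each of the 6 genes in CPM (vertical axis, from 0) in every library, by state (horizontal axis) and strain (colour). Points are libraries and bars are group means. MRL/MpJ libraries of Glo1, Dnah8 and Alad lie above all others of the same state, those of Hdhd3 share the range of STR/ort, and Pole3 sits lower in the 2-weeks libraries of all strains.

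Dnah8 showed the same order of strains for MRL/MpJ with a wider gap. At 0-day the MRL/MpJ libraries stood at 56.7, 67.8, 61.3 and 71.6 CPM. The C57BL/6 libraries stood at 16.7, 13.99, 17.4 and 18.1 CPM, and the STR/ort libraries at 14.6, 14.7, 10.3 and 8.84 CPM. MRL/MpJ lay apart from both strains, while C57BL/6 and STR/ort overlapped. Over all states MRL/MpJ ran from 38.8 to 81.1 CPM (median 62.5), C57BL/6 from 11.1 to 23.7 CPM (median 17.4) and STR/ort from 7.44 to 18.2 CPM (median 12.4). The ratio of means was 3.04 to 4.46 against C57BL/6 and 4.12 to 7.04 against STR/ort, with no overlap in any state. The highest of these ratios was in 1-week injured joints, where the STR/ort mean was 9.52 ± 1.49 CPM (SD, n = 5) and the MRL/MpJ mean 67.1 ± 9.27 CPM (SD, n = 5). The log2 difference was 1.61 to 2.14 (SE 0.10 to 0.15) against C57BL/6 and 2.03 to 2.82 (SE 0.11 to 0.15) against STR/ort.

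Dnah8 also stood apart within its own family. Per kilobase of exon, its median level was 2.33 CPM in MRL/MpJ, 0.648 CPM in C57BL/6 and 0.463 CPM in STR/ort. None of the other 11 axonemal dynein heavy chains listed reached more than 0.177 CPM per kilobase in any strain. Of 11 ciliated cell markers listed, 5 were in the table, and all of these were detected. Among the 5 is Rsph1, which starts 662.2 kb from Glo1 and had a median of 52 counts. The summed level of the 5 was 7.88 to 14.7 CPM in MRL/MpJ, 8.60 to 13.9 CPM in C57BL/6 and 6.92 to 14.5 CPM in STR/ort. Within states the sum in MRL/MpJ overlapped with that of STR/ort except at 0-day, where it was 11.9 to 14.7 CPM against 7.83 to 11.4 CPM, and with that of C57BL/6 except in 1-day injured joints, where it was 12.5 to 14.6 CPM against 9.31 to 12.1 CPM. The part of ciliated cells in the Dnah8 level was not tested.

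Alad differed between all 3 strains at 0-day. At that state the MRL/MpJ libraries stood at 257, 321, 252 and 255 CPM. The STR/ort libraries stood at 89.6, 100.2, 82.9 and 99.8 CPM, and the C57BL/6 libraries at 43.8, 44.0, 53.1 and 50.6 CPM. No library of any strain fell in the range of another, so that STR/ort was intermediate. Over all states MRL/MpJ ran from 178 to 386 CPM (median 261), C57BL/6 from 37.4 to 100.2 CPM (median 58.6) and STR/ort from 43.1 to 139.7 CPM (median 90.8). MRL/MpJ did not overlap with the others in any state. The ratio of means was 4.00 to 5.67 against C57BL/6 and 2.69 to 3.87 against STR/ort, which on the log2 scale was 2.01 to 2.49 (SE 0.10 to 0.19) and 1.38 to 1.95 (SE 0.09 to 0.20). In 2-weeks uninjured joints Alad stood at 343, 342, 363, 364 and 323 CPM in MRL/MpJ, at 75.8, 99.8, 81.9, 75.7 and 100.2 CPM in C57BL/6 and at 127, 94.0, 119.8, 99.8 and 138 CPM in STR/ort. There C57BL/6 and STR/ort overlapped and MRL/MpJ stood apart. These libraries are batch 2, which had the highest Alad means in MRL/MpJ, 347 ± 16.9 CPM in uninjured and 335 ± 57.3 CPM in injured joints (SD, n = 5 each).

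A gene was called different when its adjusted p in edgeR's quasi-likelihood test (Benjamini-Hochberg over all 17310 genes) was under 0.05 and its fold change over 1.5. By this rule 125 genes, or 0.722% of those tested, were called higher in MRL/MpJ against each of the other strains in all 7 states, among them Glo1, Dnah8 and Alad. Since that is how the 3 genes came to be picked, nothing is read from their place in this set. The smallest of their 42 ratios was 1.99, while the largest of the 14 ratios of Btbd9 was 1.41, just under the 1.5-fold limit.

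The flanking genes followed their neighbours only in part. Btbd9 was modestly higher in MRL/MpJ. At 0-day its MRL/MpJ libraries stood at 31.3, 36.0, 32.6 and 30.2 CPM. The C57BL/6 libraries stood at 24.5, 23.0, 25.6 and 24.4 CPM, and the STR/ort libraries at 22.1, 24.5, 23.7 and 32.0 CPM. MRL/MpJ was clear of C57BL/6, and 1 STR/ort library fell inside its range. Across the 7 states MRL/MpJ means lay between 32.1 and 34.9 CPM, C57BL/6 means between 24.4 and 26.7 CPM and STR/ort means between 23.6 and 29.8 CPM. The log2 difference was 0.34 to 0.49 against C57BL/6, with adjusted p from 7.03e-06 to 0.00698 in edgeR, and 0.15 to 0.47 against STR/ort, with adjusted p from 6.67e-06 to 0.0267. All 14 differences passed the adjusted p threshold and none of them reached 1.5-fold. Of all genes, 12.9% passed that p threshold as higher in MRL/MpJ over the 7 comparisons with C57BL/6 (7.98% to 18.2% by state) and 21.1% over those with STR/ort (16.5% to 27.2%). MRL/MpJ libraries lay above those of C57BL/6 without overlap in 7 of 7 states and above those of STR/ort in 6 of 7. How many of the 14 passed depended on the scaling: 6 passed with 2 factors of RUVg, which removes unwanted variation estimated from 25 housekeeping genes, where the differences ran from -0.15 to 0.40, 10 with RUVg and 1 factor, and 13 with scaling to housekeeping genes, where the difference from STR/ort in 1-day injured joints reached 0.66 and was called. Leaving out 1 library ended the pass against STR/ort at 0-day (without MRL/MpJ replicate 2, adjusted p 0.0674) and in 2-weeks injured joints (without MRL/MpJ replicate 1 or 2 or STR/ort replicate 2, adjusted p 0.0984, 0.0712 and 0.053).

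Beyond Btbd9 lie genes farther from Glo1. Of the nearest 3 listed ones on that side, Zfand3 was higher in MRL/MpJ than in C57BL/6 by 0.25 to 0.40 on the log2 scale and passed the adjusted p threshold in all 7 states (edgeR, highest adjusted p 0.0188). Against STR/ort its difference was 0.03 to 0.38 and passed in 2 of 7. Zfand3 was not called in any state for want of a 1.5-fold difference. Mdga1 was called lower than in STR/ort in 6 of 7 states (log2 difference -1.36 to -0.46), and Ccdc167 passed in none, with differences of -0.11 to 0.23 against both strains.

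Hdhd3, which starts beyond the 3′ end of Alad, was low in all libraries, at 2 to 43 counts. It was higher in MRL/MpJ than in C57BL/6 and was also higher in STR/ort than in C57BL/6, while MRL/MpJ and STR/ort overlapped in all 7 states. At 0-day the MRL/MpJ libraries stood at 1.597, 3.26, 3.62 and 2.76 CPM. The STR/ort libraries stood at 2.52, 1.66, 0.627 and 2.09 CPM, and the C57BL/6 libraries at 0.996, 0.402, 0.639 and 0.589 CPM. STR/ort spanned the gap between the other strains and overlapped with both. In 1-week uninjured joints they stood at 2.04, 1.75, 2.32 and 2.04 CPM in MRL/MpJ, at 1.13, 2.18, 1.32 and 2.03 CPM in STR/ort and at 0.231, 0.263, 0.537, 0.324 and 0.393 CPM in C57BL/6, which lay below both. Against C57BL/6, MRL/MpJ was called higher in 7 of 7 states, with log2 differences of 1.38 to 2.46 and adjusted p from 8.90e-09 to 0.000652 in edgeR. Over the 7 states, 5.01% of all genes were called higher in this comparison (3.82% to 6.33% by state), and 259 genes (1.5%) were called higher in all 7 states. STR/ort was likewise called higher than C57BL/6 in 7 of 7 states, with log2 differences of 1.04 to 2.18 and adjusted p from 2.36e-08 to 0.0166, where 7.89% of all genes were called higher over the states and 172 genes (0.994%) in all 7. The call in 1-day injured joints was lost with RUVg and 1 or 2 factors (both 0.76, adjusted p 0.166 and 0.165). Only 71 genes (0.41%), Hdhd3 among them, were called higher than C57BL/6 in both strains in all 7 states. MRL/MpJ and STR/ort themselves differed by -0.17 to 0.65 in Hdhd3, and edgeR and DESeq2 each called 0 of 7 states, none of which had an unadjusted p under 0.05 in edgeR (9.28% of all genes were called higher over these comparisons). In 1 fit of all libraries the 0-day difference was called (0.66, adjusted p 0.0377), and in 1-day injured joints it was called without STR/ort replicate 4 (0.60, adjusted p 0.0357). RUVg with 2 factors turned both 0-day differences from C57BL/6, to -0.45 for MRL/MpJ and -0.03 for STR/ort. Without C57BL/6 replicate 2 or STR/ort replicate 1 the STR/ort difference at 0-day was 1.16 or 1.08, with adjusted p of 0.0579 and 0.0708. The widest 95% interval of the Hdhd3 difference between MRL/MpJ and STR/ort, at 0-day, ran from -0.08 to 1.38.

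Pole3, on the other side of Alad, differed less than Alad did. At 0-day the MRL/MpJ libraries stood at 66.2, 73.1, 66.3 and 69.0 CPM. The C57BL/6 libraries stood at 43.9, 50.2, 48.8 and 56.8 CPM, and the STR/ort libraries at 54.4, 53.6, 39.8 and 46.1 CPM. MRL/MpJ lay above both strains at that state. Its differences over the 7 states were 0.14 to 0.42 on the log2 scale against C57BL/6, of which 4 passed the adjusted p threshold, and -0.01 to 0.50 against STR/ort, of which 3 passed, beside the 12.9% and 21.1% of all genes that passed as higher. The 7 passes became 10 of 14 with RUVg and 1 factor and 9 with housekeeping scaling, and that against C57BL/6 in 1-day injured joints had an adjusted p of 0.0573 once MRL/MpJ replicate 1 was left out, while that in 1-day uninjured joints passed without MRL/MpJ replicate 5 (0.0238). The lowest edgeR adjusted p was 5.42e-05, in 2-weeks injured joints against STR/ort, and no difference reached 1.5-fold. Pole3 was the member that differed most between the batches, at 39.8 to 74.4 CPM (median 58.8) in batch 1 and 15.4 to 29.0 CPM (median 21.8) in batch 2. The 2-weeks time point and batch 2 cannot be told apart here.

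**Figure D2:**
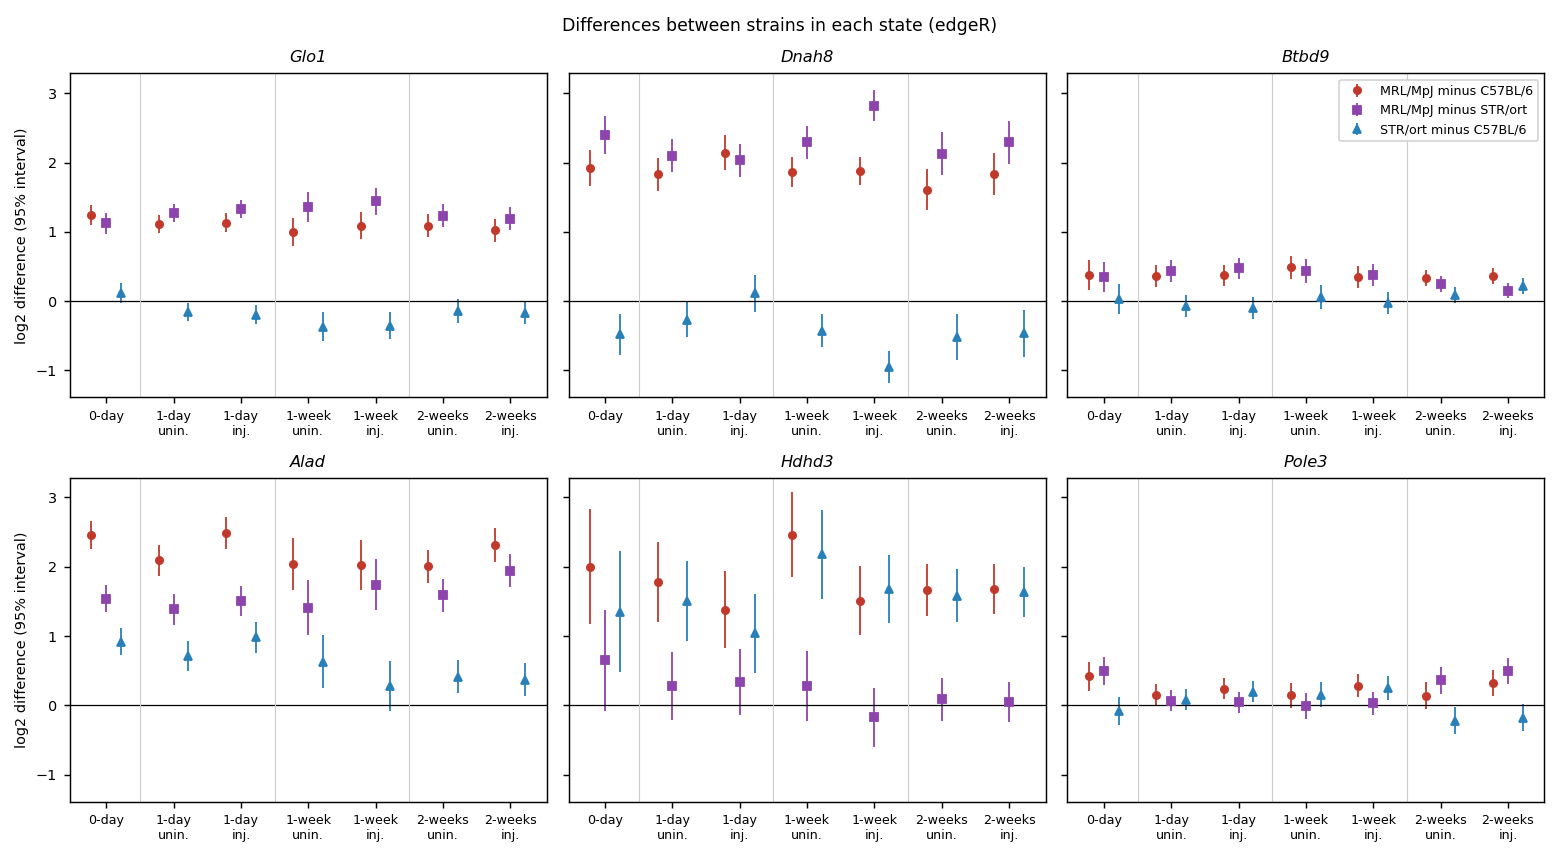
Log2 difference between strains (vertical axis) with its 95% interval from edgeR, in each of the 7 states (horizontal axis), for the 6 genes. Glo1, Dnah8 and Alad sit well above 0 in both MRL/MpJ comparisons, Btbd9 sits between 0.15 and 0.49, and Hdhd3 is above 0 against C57BL/6 in MRL/MpJ and STR/ort alike.

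A gene that was not among the 6 but lies between them, 1700097N02Rik, separated the strains as well as its neighbour Dnah8 did. It is a long non-coding RNA gene of unknown role. At 0-day its MRL/MpJ libraries stood at 2.60, 2.79, 3.45 and 3.79 CPM. The C57BL/6 libraries stood at 0.453, 0.885, 0.548 and 0.491 CPM, and the STR/ort libraries at 0.291, 0.237, 0.522 and 0.491 CPM. MRL/MpJ did not overlap with either strain at 0-day or in any of the other 6 states. The log2 difference was 1.84 to 3.07 against C57BL/6 and 2.30 to 2.96 against STR/ort, called higher in all 14 comparisons. The gene is named because of these calls, so no p is given for them. STR/ort and C57BL/6 differed by -0.82 to 0.38 with a lowest adjusted p of 0.135 in edgeR. Counts were low, at 19 to 70 per MRL/MpJ library, 1 to 18 per C57BL/6 library and 0 to 18 per STR/ort library. In the GENCODE annotation, 2 of 10 Glo1 transcripts begin inside the first exon of this RNA on the same strand, so reads of that exon cannot be assigned to either gene with certainty.

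The surroundings held other strain differences in both directions. Within 1 Mb of Glo1, 18 other listed genes start, and of their 126 tests against C57BL/6 (18 genes in 7 states) 28, or 22.2%, were called, 15 of them higher and 13 lower in MRL/MpJ, beside 12.3% over all genes. The median log2 difference of these tests was 0.125, beside 0.005 over all genes. The 7 states repeat the same genes: 1700097N02Rik gave 7 of the 15 higher calls and Tmprss3 gave 7 of the 13 lower ones. Against STR/ort 38 of 126 were called (30.2%, beside 20.6% over all genes), 24 higher and 14 lower. On the higher side of the coordinates the nearest listed genes were Umodl1, Abcg1 and Tmprss3. Umodl1 had a median of 1 count and was called higher in MRL/MpJ in 3 of 7 states against C57BL/6 and 5 of 7 against STR/ort. Abcg1, a cholesterol transporter, was lower in MRL/MpJ, by 0.30 to 0.65 on the log2 scale below C57BL/6 and by 0.39 to 0.79 below STR/ort, and passed the adjusted p threshold in all 14 comparisons. Tmprss3, a membrane serine protease, was called lower than in C57BL/6 in all 7 states, with differences of -1.19 to -0.64. Apart from Glo1 and Dnah8, 1700097N02Rik was the only listed gene within 1 Mb of Glo1 that was called in the same direction against both strains in all 7 states.

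Around Alad, 29 of 126 tests of the 18 other listed genes were called against C57BL/6 (23.0%), 14 higher and 15 lower, and 41 of 126 against STR/ort (32.5%), 16 higher and 25 lower, beside the same 12.3% and 20.6% over all genes. Bspry, the nearest listed gene beyond Hdhd3, had a median of 4 counts and was called higher in MRL/MpJ in 5 of 7 states against C57BL/6 (log2 difference 0.87 to 3.06) and in 4 of 7 against STR/ort (0.41 to 1.23). Wdr31 and 4933430I17Rik had medians of 3 counts and were called higher in at most 3 of 7 states in either comparison. Prpf4, a splicing factor, differed by -0.00 to 0.29 and was not called. On the other side, Rgs3, a regulator of G protein signalling, was lower in MRL/MpJ by up to 0.86 on the log2 scale and was called in 2 of 7 states against STR/ort, and Zfp618 was called lower in 1 of 7 against each strain. Orm2, which encodes an acute-phase plasma protein and starts 856.5 kb from Alad, was called higher against both strains in all 7 states (2.83 to 3.99 against C57BL/6 and 2.53 to 3.91 against STR/ort), at a median of 4 counts. Orm2 is named because of these calls, which make up 7 of the 14 higher ones against C57BL/6. It has close paralogs beside it, so its reads may be split among copies.

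**Figure D3:**
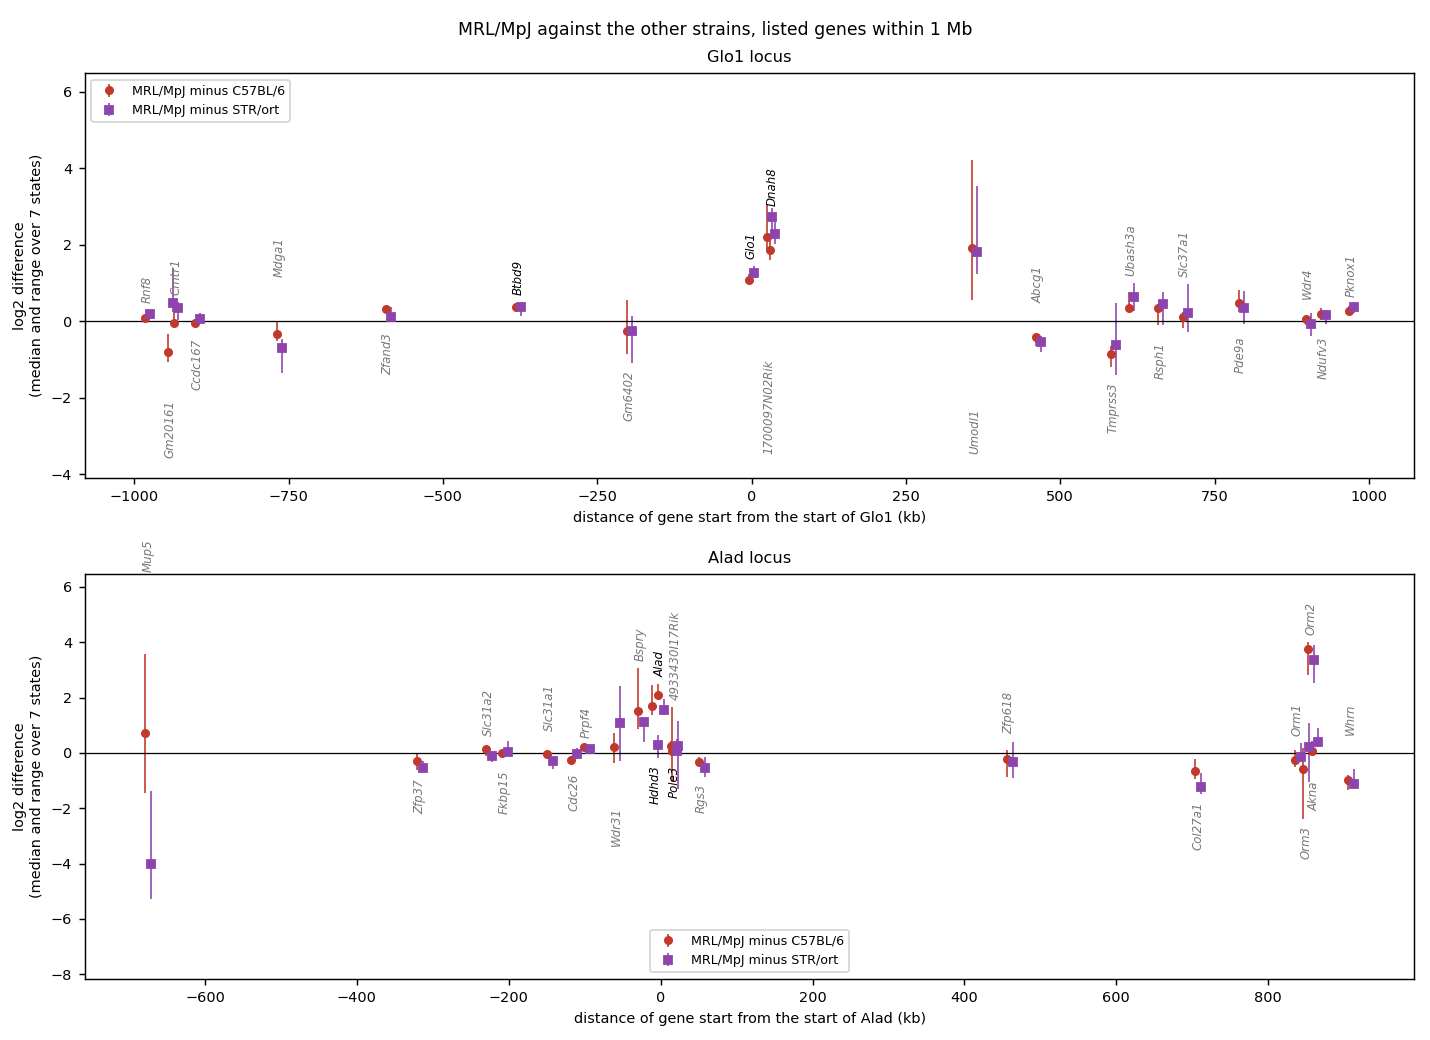
Log2 difference of MRL/MpJ from C57BL/6 (circles) and from STR/ort (squares) for listed genes that start within 1 Mb of Glo1 (top) and Alad (bottom), against distance in kb between the lower coordinates of the genes. Symbols are medians over the 7 states and lines the range, and the names of the 6 genes are in black. Glo1, 1700097N02Rik and Dnah8 lie side by side above 0, the low-count Umodl1 and Orm2 lie farther out, and Btbd9 and Pole3 lie lower, at up to 0.50.

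STR/ort and C57BL/6 were compared as a pair that played no part in the choice of the genes. Of 42 tests (6 genes in 7 states), 12 were called: 7 for Hdhd3, 4 for Alad and 1 for Dnah8. Over all genes 14.9% were called in these comparisons: 13.8% at 0-day, 10.5% and 12.4% in 1-day uninjured and injured joints, 22.2% and 25.1% at 1-week, and 9.78% and 10.4% at 2-weeks. By adjusted p alone 34.4% passed. Alad was higher in STR/ort at 0-day by 0.92 ± 0.09 (log2, SE), with an edgeR adjusted p of 8.07e-07, and in 1-day uninjured (0.71) and 1-day injured joints (0.98, adjusted p 3.69e-08). In 1-week uninjured joints the difference was 0.63 ± 0.19 with an adjusted p of 0.00667, but it fell to 0.36 (adjusted p 0.0976) without STR/ort replicate 3, to 0.55 or 0.56 and thus under 1.5-fold without C57BL/6 replicate 2 or 3, and to 0.08 (adjusted p 0.892) with RUVg and 1 factor. In the remaining states it was 0.28 in 1-week injured joints (adjusted p 0.192) and 0.41 and 0.37 in 2-weeks uninjured and injured joints, which passed the adjusted p threshold (0.00881 and 0.0176) and not the 1.5-fold limit. RUVg with 2 factors changed which states were called: both 2-weeks differences were (0.76 and 0.59, adjusted p 3.79e-07 and 2.65e-06), while those in 1-day uninjured (0.57) and 1-week uninjured joints (0.21, adjusted p 0.664) were not. Scaling to housekeeping genes also ended the 1-week uninjured call (0.49, adjusted p 0.0255).

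Dnah8 tended the other way. Its STR/ort difference from C57BL/6 was -0.94 ± 0.11 (log2, SE) in 1-week injured joints, with an edgeR adjusted p of 6.68e-08, and this state alone was called. In 1-week uninjured joints Dnah8 was also called with RUVg and 1 or 2 factors (-0.63 and -0.76, adjusted p 0.0132 and 0.00264). It was called too at 0-day without STR/ort replicate 1 (-0.59), and in 2-weeks uninjured joints without STR/ort replicate 4 or 5 (-0.63 or -0.60). In 1-week injured joints the C57BL/6 libraries stood at 17.4, 17.4, 19.0, 19.9 and 17.6 CPM and the STR/ort libraries at 10.8, 7.44, 10.96, 9.76 and 8.66 CPM, without overlap. In the remaining 6 states the difference was -0.52 to 0.11, and 4 of these passed the adjusted p threshold. Glo1 was lower in STR/ort in 3 of 7 states by adjusted p, at -0.20 to -0.37, and did not reach 1.5-fold. None of these 3 passed with RUVg and 1 or 2 factors, where they were -0.06 to 0.08 and both 1-week differences turned positive. Btbd9 passed in 1 state (0.22 in 2-weeks injured joints, adjusted p 0.00390) and Pole3 in 2 (0.20 and 0.25 in 1-day and 1-week injured joints), which did not pass with RUVg (0.03 to 0.09).

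The other enzymes of heme synthesis and the erythroid markers differed between strains too, and their values are set beside those of Alad. In a bulk joint, fewer cells of a type and less RNA per cell cannot be told apart. Of the 8 heme genes besides Alad, tested in 7 states, 38 of 56 tests were called higher and 1 lower in MRL/MpJ than in STR/ort, with a median log2 difference of 0.826. Over all genes 20.6% were called in this comparison, 9.28% being called higher, and the median was -0.007. Against C57BL/6, 6 of 56 tests were called higher and 6 lower, with a median of 0.203, beside 12.3% called and a median of 0.005 over all genes. All 6 lower calls were of Cpox, described below. Between STR/ort and C57BL/6 none were higher and 28 of 56 lower, with a median of -0.583, the opposite direction to Alad, beside 14.9% called over all genes. Fech, which inserts iron into protoporphyrin, was called higher in MRL/MpJ than in STR/ort in all 7 states (0.68 above C57BL/6 and 0.99 above STR/ort at 0-day). Cpox, a mitochondrial enzyme of the same pathway, was called lower in MRL/MpJ than in C57BL/6 in 6 of 7 states (-0.80 at 0-day). Alad itself was 2.46 ± 0.10 above C57BL/6 and 1.54 ± 0.09 above STR/ort at 0-day, given as a description since it was selected on these contrasts.

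Of 14 listed erythroid markers, 9 were in the table. In 63 tests, 59 were called higher and 1 lower in MRL/MpJ against STR/ort, 19 higher and 7 lower than in C57BL/6, and 0 higher and 44 lower in STR/ort than in C57BL/6. The shares called over all genes were 20.6%, 12.3% and 14.9% in these comparisons. The marker Hba-a2 had medians of 4.22 CPM in MRL/MpJ, 1453 CPM in C57BL/6 and 2.09 CPM in STR/ort, a spread that no other marker showed, and it was left out of the sum below, a choice made after its values were seen. The sum of the other 8 ran from 2786 to 5825 CPM in MRL/MpJ (median 4772), from 2083 to 5799 CPM in C57BL/6 (median 3497) and from 910.5 to 4157 CPM in STR/ort (median 2188). Within states, MRL/MpJ lay above C57BL/6 without overlap at 0-day and in both 1-day states (4762 to 5825 against 3022 to 3616 CPM at 0-day) and overlapped with it in the 4 later states. MRL/MpJ lay above STR/ort without overlap in all 7 states. With Hba-a2 the medians were 4777, 4753 and 2189 CPM.

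Set against this sum, Alad kept an order of strains but the distances changed. At 0-day there were 53.3 ± 1.53 CPM of Alad per 1000 CPM of markers in MRL/MpJ, 40.6 ± 3.51 in STR/ort and 14.6 ± 0.53 in C57BL/6 (SD, n = 4 each). Over the 7 states the ratio of MRL/MpJ to C57BL/6 was 3.23 to 3.92 on this scale, with no overlap in 7 of 7 states, where the unscaled ratio was 4.00 to 5.67. The ratio of MRL/MpJ to STR/ort was 1.25 to 1.41, with no overlap in 6 of 7 states, where the unscaled ratio was 2.69 to 3.87. The ratio of STR/ort to C57BL/6 was 2.43 to 2.86, again without overlap in 7 of 7 states. On this scale Alad in STR/ort was closer to MRL/MpJ than to C57BL/6. In batch 2 the quotient was higher in all strains, at 83.0, 61.7 and 24.7 CPM per 1000 in 2-weeks uninjured joints of MRL/MpJ, STR/ort and C57BL/6. How much of each strain difference in Alad goes with erythroid cells was not tested.

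**Figure D4:**
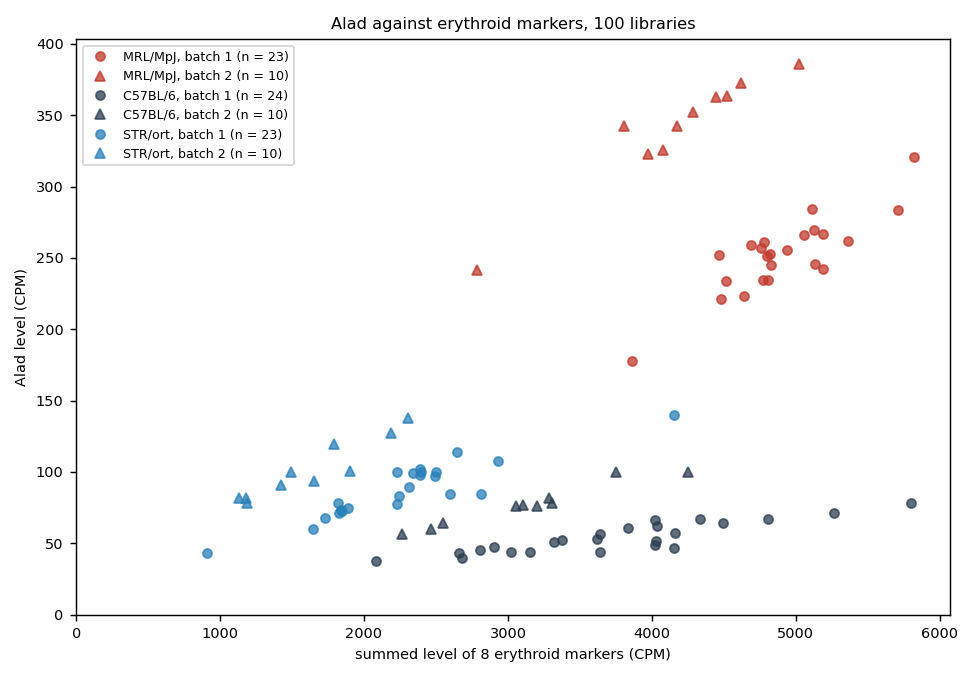
Alad level in CPM (vertical axis) against the summed level of 8 erythroid markers in CPM (horizontal axis) in all 100 libraries. Colours are strains, circles batch 1 and triangles batch 2. In 1-week joints the marker sums of C57BL/6 (3639 to 5799 CPM) and MRL/MpJ (3861 to 5367 CPM) overlap, with Alad at 43.5 to 78.0 and 178 to 285 CPM. At 0-day and 1-day every C57BL/6 library lies to the left of every MRL/MpJ library of the same state.

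The other listed genes of the pathways of Glo1, Dnah8 and Pole3 were compared between strains in the same way. Over all genes 12.3% were called against C57BL/6 (5.01% higher) and 20.6% against STR/ort (9.28% higher), and the counts below stand beside these shares with nothing further read from them. Among 13 other genes of glyoxal detoxification and glutathione metabolism, 0 of 91 tests were called higher and 16 lower in MRL/MpJ than in C57BL/6 (median -0.035), and 16 were higher and 12 lower against STR/ort. Gsr, which regenerates reduced glutathione, was called lower than in C57BL/6 in all 7 states, by 1.46 at 0-day on the log2 scale, and was lower by a like amount in STR/ort (-1.55). Akr1b8, an aldo-keto reductase, was called lower than in STR/ort in all 7 states (-1.05 at 0-day). Among the 11 other axonemal dynein heavy chains, 4 of 77 tests were called higher and 10 lower against C57BL/6 (median -0.344) and 5 higher and 9 lower against STR/ort. Dnah6 was called lower than in C57BL/6 in 6 of 7 states, by 1.74 on the log2 scale at 0-day, and Dnah12, at a median of 0.498 CPM, was called lower in 1. The 6 other subunits of polymerase epsilon and CHRAC gave no call against C57BL/6 in 42 tests and 4 higher calls against STR/ort, all of them for Pole, the catalytic subunit (0.82 at 0-day), while Chrac1 differed from C57BL/6 by 0.34. No listed pathway gene besides Glo1, Dnah8 and Alad was called in 1 direction against both strains in all 7 states.

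Injury differences of the 6 genes were tested within each strain and time. Of 54 tests of injured against uninjured joints (6 genes, 3 strains and 3 times), edgeR called 1, and 4 passed the adjusted p threshold. Over all genes 4.32% were called and 10.5% passed by adjusted p. By rising time, 2.02%, 3.13% and 1.16% were called in MRL/MpJ, in C57BL/6 5.6%, 5.82% and 2.95%, and in STR/ort 4.31%, 9.21% and 4.66%. The call was Dnah8 in STR/ort at 1-week, where uninjured joints stood at 18.0, 12.3, 13.7 and 15.5 CPM and injured joints at 10.8, 7.44, 10.96, 9.76 and 8.66 CPM. The groups did not overlap, and the log2 difference was -0.64 ± 0.12 (SE, adjusted p 0.000355). Without STR/ort injured replicate 2 or uninjured replicate 1 it was -0.57 or -0.54 and no longer past 1.5-fold, with adjusted p of 0.00163 and 0.00293. In the same comparison the median log2 difference was -0.766 for fast muscle, -0.586 for marrow neutrophil, -0.56 for erythroid and 0.074 for ciliated cell markers. The part of tissue make-up in this Dnah8 difference was not tested. Alad was also called in C57BL/6 at 1-day with RUVg and 2 factors (-0.60), and in STR/ort at 1-week without uninjured replicate 1 (-0.65, adjusted p 0.00982). The other 3 that passed were Alad and Dnah8 in C57BL/6 at 1-day (both -0.46, adjusted p 0.00294 and 0.0103) and Alad in STR/ort at 2-weeks (-0.41, adjusted p 0.0163).

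Alad and Dnah8 each had a lower mean in injured joints in 9 of 9 comparisons, by 0.06 to 0.49 and 0.08 to 0.64 on the log2 scale, and Hdhd3 a higher mean in 9 of 9, by 0.04 to 1.00, most of which did not pass the test. For Alad at 1-day in C57BL/6, uninjured joints stood at 45.2, 60.8, 67.3, 66.4 and 62.1 CPM and injured joints at 39.6, 52.6, 47.2, 37.4 and 43.5 CPM. These groups overlapped at their edges. The 8 other heme genes had a median difference of -0.457 in the same comparison and the 9 erythroid markers -0.473, and per 1000 CPM of the 8 markers Alad stood at 15.9 in uninjured and 16.2 in injured joints. In MRL/MpJ, where the injury differences of Alad were -0.06 to -0.16, the heme genes had medians of -0.127, -0.125 and -0.013 at the 3 times.

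**Figure D5:**
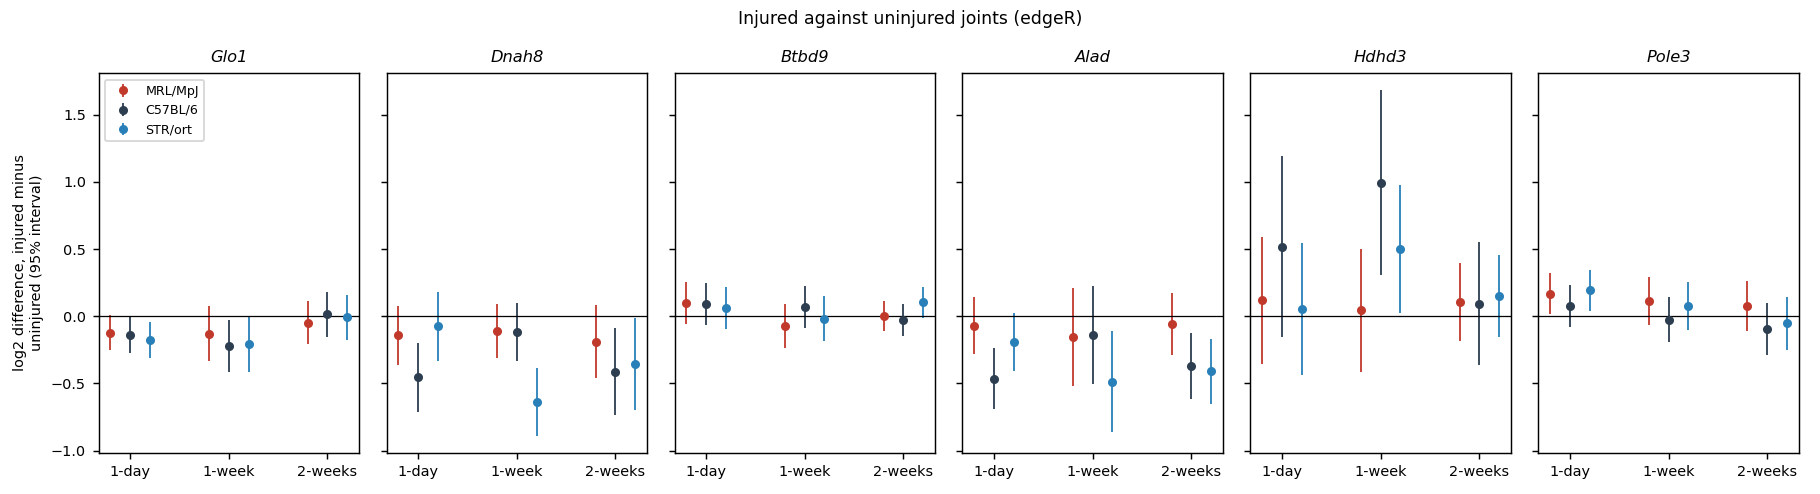
Log2 difference of injured from uninjured joints (vertical axis) with its 95% interval from edgeR, for the 6 genes by time (horizontal axis) and strain (colour). Most intervals span 0, Alad and Dnah8 lie below 0 throughout, and the widest intervals belong to Hdhd3, which has 2 to 43 counts per library.

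At 2-weeks the labels name the animal of each joint, so that 15 pairs of joints came from the same mice. With the replicate number as a block, 9 of 54 injury tests passed the adjusted p threshold in edgeR and 2 were called. In the paired 2-weeks joints of C57BL/6 the blocked fit passed Alad (-0.37, adjusted p 0.0114, beside 0.0509 without the block) and Dnah8 (-0.43, adjusted p 0.0179, beside 0.107). In STR/ort at 1-week, where same-numbered joints correlated at 0.102 to 0.231 in all 4 pairs, it passed Alad (-0.46, adjusted p 0.000775, beside 0.0588), and Dnah8 stayed called (-0.60, adjusted p 0.000293). The added call was Hdhd3 in C57BL/6 at 1-week (1.04, adjusted p 0.0469), where numbers are shared but the labels do not name animals.

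Of 54 interaction tests in edgeR, 0 passed the adjusted p threshold, 6 had an unadjusted p under 0.05, and the lowest adjusted p was 0.104. DESeq2 passed 0 as well, with a lowest adjusted p of 0.0714. Over all genes 0.775% passed and 0.557% were called in these comparisons. The lowest adjusted p belonged to Dnah8 at 1-week, where the injury difference of MRL/MpJ exceeded that of STR/ort by 0.53 ± 0.16 (log2, SE). Without MRL/MpJ injured replicate 3 this difference was 0.60 with an adjusted p of 0.0247. With RUVg and 2 factors 3 tests passed the adjusted p threshold and not the 1.5-fold limit: this one (0.54, adjusted p 0.0403), Dnah8 at 1-week in STR/ort against C57BL/6 (-0.58, adjusted p 0.0449) and Alad at 2-weeks in MRL/MpJ against STR/ort (0.38, adjusted p 0.0392).

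The genes most like Glo1, Dnah8 and Alad over the 100 libraries were found by Pearson's r of log2 CPM. The gap between MRL/MpJ and the other strains enters this r, and no r was taken within strains. The points share strains, joints and batches, so r is a description. For Glo1 they were Park2 (r = 0.953), H2-Ea-ps (0.947) and Neto2 (0.945), for Dnah8 Cln8 (0.939), 4933440M02Rik (0.937) and Msh5 (0.937), and for Alad Slc26a1 (0.935), Tmem181c-ps (0.919) and H2-Ea-ps (0.912). Glo1 and Dnah8 had an r of 0.923 with each other, which ranked Dnah8 at place 8 among all genes for Glo1. Alad had an r of 0.864 with Glo1 and of 0.849 with Dnah8, although it lies on another chromosome. The flanking genes ranked lower: Btbd9 had 0.786 with Glo1, Hdhd3 had 0.659 with Alad and Pole3 had -0.009 with Alad.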

How the data were processed

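Whole knee joints of 3 mouse strains were profiled by RNA-seq in 100 libraries. The authors aligned reads to mm10 with TopHat2 2.0.11, counted them over RefSeq genes with featureCounts and deposited raw counts per gene. Reads of all strains were aligned to a C57BL/6-derived reference, and how strain variants change the counts was not tested. Of 17313 rows, 3 repeated ones were dropped, leaving 17310 genes, and 24 names had been turned into dates. A filter after the study's, of 2 counts or more in 5 libraries or more, took out 0 genes. Total counts ran from 6182016 to 20986027. None of 190 pairs of libraries within groups was identical. Within each time point, edgeR 4.0.16 with limma 3.58.1 (R 4.3.3) was fitted with TMM factors and its quasi-likelihood test, with Benjamini-Hochberg adjustment. The study normalized with RUVSeq on 25 housekeeping genes, with the number of factors not stated. Its RUVg step, written out in R with 1 or 2 factors, is run here as an alternative, as are DESeq2 1.42.0, other scalings and filters, 1 fit of all libraries, a replicate block and each replicate left out. The labels name replicates but, except at 2-weeks, not animals, so p-values measure the spread between these joints. The steps were tested on simulated counts. The named genes are the 6 genes, the 3 nearest listed genes on each side, locus and list genes called against both strains in all 7 states, the 2 list genes farthest from C57BL/6 at 0-day and the 3 genes most like each of Glo1, Dnah8 and Alad. The genes and lists were chosen with earlier results of these data known. Same-numbered joints correlated at -0.131 to 0.245 at 1-day, -0.022 to 0.269 at 1-week and -0.161 to 0.262 at 2-weeks (deviations from group means), with medians of 0.085, 0.097 and 0.139. Only at 2-weeks do the labels give the pairing. At 1-week in STR/ort all 4 pairs exceeded 0.1, and for the other groups at 1-day and 1-week it is not known whether numbers pair the joints.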

Additional observations from a re-analysis of the deposited data

Results flagged for a closer look

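Of 126 groups of 4 or 5 libraries tested for a library far from the rest, 9 held such a library, where chance alone gives about 1 in 20. Among MRL/MpJ joints, Alad at 0-day stood at 321 CPM in replicate 2, beside 252 to 257 CPM in the others. Its erythroid marker sum, at 5825 CPM, was also the highest of the 33 MRL/MpJ libraries. Dnah8 in 2-weeks injured joints stood at 38.8 CPM in replicate 4, beside 56.7 to 60.4 CPM. Glo1 in 1-day injured joints stood at 209 CPM in replicate 5, beside 166 to 177 CPM, and Hdhd3 in 1-day uninjured joints at 1.63 CPM in replicate 2, beside 2.11 to 2.23 CPM. Among C57BL/6 joints, Glo1 stood at 108 CPM in 2-weeks injured replicate 3 (others 89.3 to 94.5), Dnah8 at 22.1 CPM in 1-day uninjured replicate 4 (others 14.9 to 16.0) and Btbd9 at 23.9 CPM in 2-weeks uninjured replicate 4 (others 26.4 to 27.1). Among STR/ort joints, Btbd9 stood at 30.6 CPM in 1-day injured replicate 1 (others 22.5 to 24.5) and Pole3 at 64.9 CPM in 1-week uninjured replicate 3 (others 58.4 to 58.9). Even the low Dnah8 library of MRL/MpJ exceeded the highest C57BL/6 and STR/ort libraries, at 23.7 and 18.2 CPM.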

How the results depend on the processing

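The lowest of the 14 ratios of MRL/MpJ to another strain was 1.99 for Glo1, 3.04 for Dnah8 and 2.69 for Alad, and leaving out 1 replicate at a time gave 1.89 to 2.04, 2.92 to 3.16 and 2.42 to 2.72. Relative to 8 erythroid markers, a scale chosen after seeing the data, the lowest Alad ratio was 1.25. Of 42 tests of the flanking genes in MRL/MpJ, 7 were called (7 to 8 with a replicate left out), and of 42 tests of STR/ort against C57BL/6, 12 (11 to 13). Of 54 injury tests 1 was called (0 to 2 with a replicate left out), 2 with RUVg and 2 factors and 2 with the replicate block. Of 54 interaction tests 0 were called (0 to 1 with a replicate left out), and 0 with the replicate block, which changed no other call. Under every alternative that kept all replicates 39, 35, 52 and 54 of these tests stayed called or stayed not called, and some of those not called changed sign. RUVg with 2 factors turned Hdhd3 at 0-day to -0.45 against C57BL/6 in MRL/MpJ (adjusted p 0.912) and to -0.033 in STR/ort (adjusted p 0.990). The cause was not tested. Scaling to housekeeping genes shifted the median of all genes by -0.166 to 0.182 between strains, and every other scaling by at most 0.044. Of 504 tests of the genes within 1 Mb in MRL/MpJ 136 were called, and 97 to 138 under the alternatives that kept all of these tests. Depth limits Hdhd3, 1700097N02Rik and Orm2, which had medians of 18, 8 and 4 counts per library.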
